A study of Mus musculus with 8 samples.

Results

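The genes described here are Zic1, Zic2, Zic5, Sox1, Sox3, Sox11, Pax6, Nes and Ncam1, 9 of the 54281 genes in the deposited tables. They were chosen by name as transcription factors of the Zic and Sox families and early genes of the neural lineage, and each symbol stood on 1 row. They were measured by RNA-seq in epiblast-like cells (EpiLCs), which model the formative epiblast just before gastrulation. The study asks what the loss of TET1, an enzyme that oxidizes 5-methylcytosine, does to early lineage choice, and the comparison here is between Tet1 KO and WT lines.

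The KO group holds the lines KO1, KO9, KO15 and KO25, and the WT group holds WT7, WT12, WT17 and WT34. All 8 are male mouse ESC lines derived from blastocysts of a B6 × 129S6 F1 cross that carries the Tet1 tm1Koh allele, homozygous in KO and absent in WT. Both groups were treated alike. Naive ESCs kept in 2iL were plated on fibronectin and converted with 12 ng/ml bFGF and 1% KOSR in N2B27, with no Activin A, and were harvested on day 2. Each line gave 1 library, so line, culture and library all add to the spread of a group. In 2 WT libraries the title does not match the labelled line (title WT12 with label WT9, title WT17 with label WT12), and the titles are used. The column headers add a suffix to each line. KO1, KO9, WT7 and WT17 end in b1, and KO15, KO25, WT12 and WT34 end in b2. The sources used here do not say what the suffix stands for, so b2 against b1 is described only as a difference between these columns. Each suffix holds 2 KO and 2 WT lines.

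Deposited estimated counts summed to between 13916576 and 23680839 per line, and pairwise correlations of log2 CPM between libraries, across 17272 genes, ran from 0.951 to 0.980. Levels between genes are given in TPM, a deposited unit scaled to the library, which accounts for transcript length. Levels of 1 gene between lines are given in CPM, counts scaled by the TMM-adjusted library size. Tet1 itself checked the labels, at 38.4 to 54.2 CPM in the 4 KO lines and 559 to 851 CPM in the 4 WT lines (log2 difference −3.97, SE 0.172, edgeR adjusted p = 2.09e-05). In TPM the fall of Tet1 was smaller, at 21.6 to 32.0 TPM in KO lines against 60.5 to 91.5 TPM in WT lines. The KO mean was 47.9 CPM and 26.8 TPM, and the WT mean 750 CPM and 81.2 TPM. The reads behind 1 TPM of Tet1 therefore differed between genotypes, and the cause was not tested.

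When the epiblast is not exposed to signals for mesoderm and endoderm, it turns towards neural ectoderm. Sox2 and Sox3 are on from pluripotent cells through neural progenitors, Zic factors rise as cells leave the naive state, and Sox1 and Pax6 mark cells that have entered the neural plate. Nes and Ncam1 encode structural and surface proteins of neural progenitors and neurons rather than regulators. In bulk RNA a lower value can mean fewer cells that express a gene or less RNA in each, and these cannot be told apart here.

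Zic2 and Zic5 lie head to head on chromosome 14 (GRCm38, positions from GENCODE M21). Zic5 spans chr14:122456795-122465677 on the minus strand and Zic2 spans chr14:122475435-122479852 on the plus strand, with 9758 bases between their starts. Zic1 lies at chr9:91358058-91365810 on the minus strand and overlaps Zic4 on the opposite strand. Nes lies at chr3:87971078-87980451 on the plus strand, Pax6 at chr2:105668900-105697364 on the plus strand and Ncam1 at chr9:49502136-49798925 on the minus strand. Sox1 (chr8:12395295-12400126, plus), Sox3 (chrX:60891366-60893430, minus) and Sox11 (chr12:27334264-27342574, minus) are genes of 1 exon. The upstream sequences of Zic5, Nes and Zic1 are shown because Zic5 was the highest member, Nes the lowest member above 1 TPM in every line, and Zic1 the member below 1 TPM in every line. They come from RefSeq promoter windows of GRCm38.p6, are written 5′ to 3′ on the strand of the gene and end before the first annotated exon, with CpG dinucleotides in capitals. The Zic5 stretch is chr14:122465678-122465908, the Nes stretch chr3:87970843-87971077 and the Zic1 stretch chr9:91365811-91366018.
Zic5: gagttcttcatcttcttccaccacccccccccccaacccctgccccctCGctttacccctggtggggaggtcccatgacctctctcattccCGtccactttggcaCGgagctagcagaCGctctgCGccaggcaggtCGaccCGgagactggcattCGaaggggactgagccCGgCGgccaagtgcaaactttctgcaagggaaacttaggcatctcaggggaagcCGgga
Nes: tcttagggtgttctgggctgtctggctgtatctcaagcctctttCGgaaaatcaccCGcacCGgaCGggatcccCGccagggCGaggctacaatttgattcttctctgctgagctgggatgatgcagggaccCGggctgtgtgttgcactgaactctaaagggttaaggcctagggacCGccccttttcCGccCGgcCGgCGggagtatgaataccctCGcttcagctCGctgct
Zic1: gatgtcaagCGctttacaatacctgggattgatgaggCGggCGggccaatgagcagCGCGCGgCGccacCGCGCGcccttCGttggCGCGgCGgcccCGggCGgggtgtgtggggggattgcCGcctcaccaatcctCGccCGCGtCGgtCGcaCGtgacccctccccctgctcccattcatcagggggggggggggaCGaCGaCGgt

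The RefSeq windows reach 250 bases before the RefSeq start, which for these genes lies inside the GENCODE gene, so the stretches shown are shorter. They hold 11 CpGs in 231 bases for Zic5, 14 in 235 bases for Nes and 26 in 208 bases for Zic1. The whole windows held 11, 15 and 27 CpGs in the same order, against a median of 6 over 32851 RefSeq windows. As many CpGs or more stood in 35.6% of all windows for Zic5, in 27.3% for Nes and in 8.56% for Zic1. Among these 3 stretches, that of Zic1 held the most CpGs. Whole windows of other genes did not follow the order of levels. They held 27 CpGs for Sox2 and 17 for Sox11, both on in every line, and 29 for Sox1, on in some lines only.

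Of the 9 genes, 5 were already on in every EpiLC line, where on means at least 1 TPM. These were the Zic factors Zic5 and Zic2, the Sox factors Sox3 and Sox11, and Nes, an intermediate filament protein of neural progenitors. Ncam1, Pax6 and Sox1 were above 1 TPM in some lines only, and Zic1 was below 1 TPM in all 8 lines. The count of members on in every line stayed 5 at 0.5 TPM and at 2 TPM. It was 4 at 5 TPM and 7 at 1 CPM, so it depends on the threshold and the unit.

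**Figure D1:**
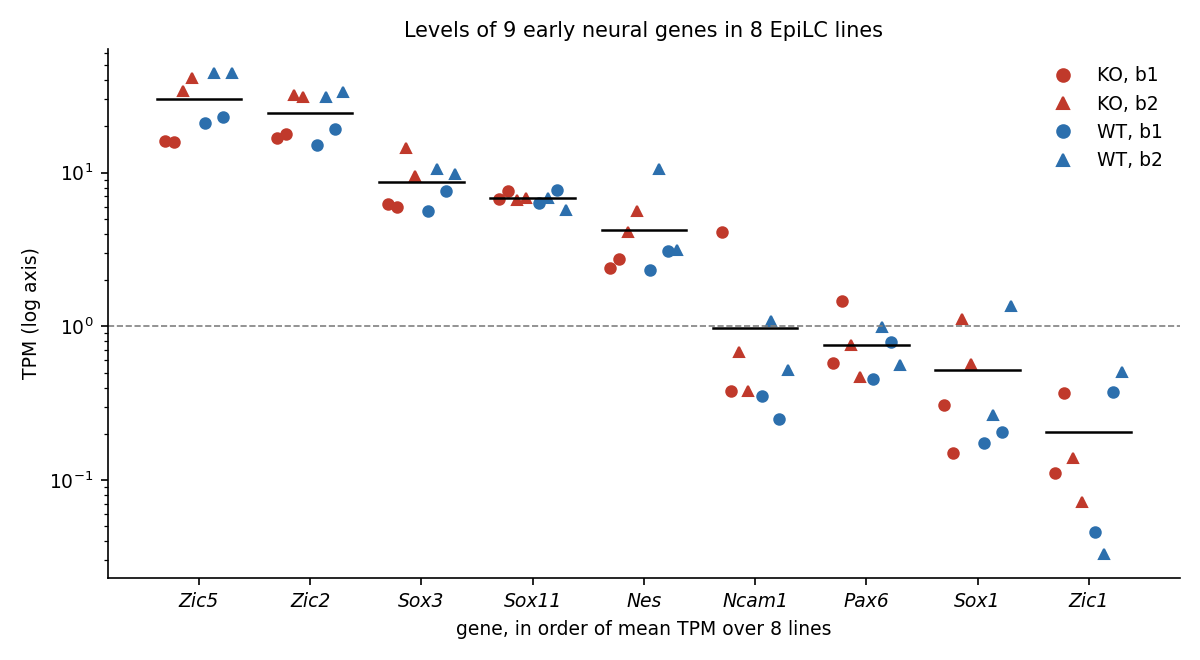
TPM of each gene in each of the 8 lines on a log axis, with KO lines in red, WT lines in blue, b1 columns as circles, b2 columns as triangles, the mean over 8 lines as a black bar and 1 TPM as the dashed line. Zic5, Zic2, Sox3, Sox11 and Nes sit above 1 TPM in every line, and Zic1 sits below it in every line.

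Zic5 had the highest mean (30.0 ± 12.4 TPM, SD, n = 8) and ran from 15.7 TPM in KO9 to 44.3 TPM in WT34. Zic2 followed at 24.6 ± 7.97 TPM, with its lowest value, 15.2 TPM, in WT7 and its highest, 33.4 TPM, in WT34. Both encode zinc finger factors that act in the epiblast and the early neural plate. The ranges of the pair overlapped, and Zic5 exceeded Zic2 in 6 of 8 lines. Sox3, a SoxB1 factor of neural progenitors, stood at 8.74 ± 3.02 TPM and at most 14.6 TPM, so Zic2 and Sox3 did not overlap in any line. Of the 8 steps between neighbours in the order of mean TPM, this was the only one without overlap.

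Sox11, a SoxC factor that acts in differentiating neurons and many other tissues, was the steadiest member. It ran from 5.70 TPM in WT34 to 7.73 TPM in WT17, with a mean of 6.81 ± 0.652 TPM. Nes stood at 4.25 ± 2.77 TPM, and most of its spread came from WT12 at 10.5 TPM. Its lowest value was 2.34 TPM, in WT7.

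Sox1 and Pax6 are the factors whose appearance marks the neural plate. Sox1 reached 1 TPM in 2 lines, KO15 at 1.11 TPM and WT34 at 1.36 TPM, and ran from 0.150 to 0.571 TPM in the others. Pax6 reached it only in KO9, at 1.46 TPM, and ran from 0.452 to 0.986 TPM elsewhere. Ncam1, a cell adhesion molecule of neural cells, did so in KO1 at 4.11 TPM and in WT12 at 1.09 TPM, with 0.251 to 0.684 TPM in the rest. Zic1, a factor of the dorsal neural tube and somites, ran from 0.0331 TPM in WT12 to 0.504 TPM in WT34. Its estimated counts were 9.34 to 33.0 per line, so its values rest on few reads.

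For Ncam1, Pax6 and Zic1, the TPM and the counts placed the lines in different orders. These genes have 7, 26 and 3 annotated transcripts, and the reads behind 1 TPM, in reads per TPM after scaling to the library total, varied between lines. For Ncam1 this was 0.698 in KO1 and 7.26 to 11.2 in the other 7 lines, so KO1, highest in TPM, held only 2.81 CPM, near the lowest. Zic1 stood at 1.55 to 2.49 in KO9, WT17 and WT34 and at 11.7 to 12.6 in the other 5 lines. Pax6 ran from 1.86 in KO9 to 4.54 in KO15. For the other 6 members the highest and lowest line differed by 1.07 to 1.25 times. The comparisons below therefore use counts, with TPM beside them where they differ.

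**Figure D2:**
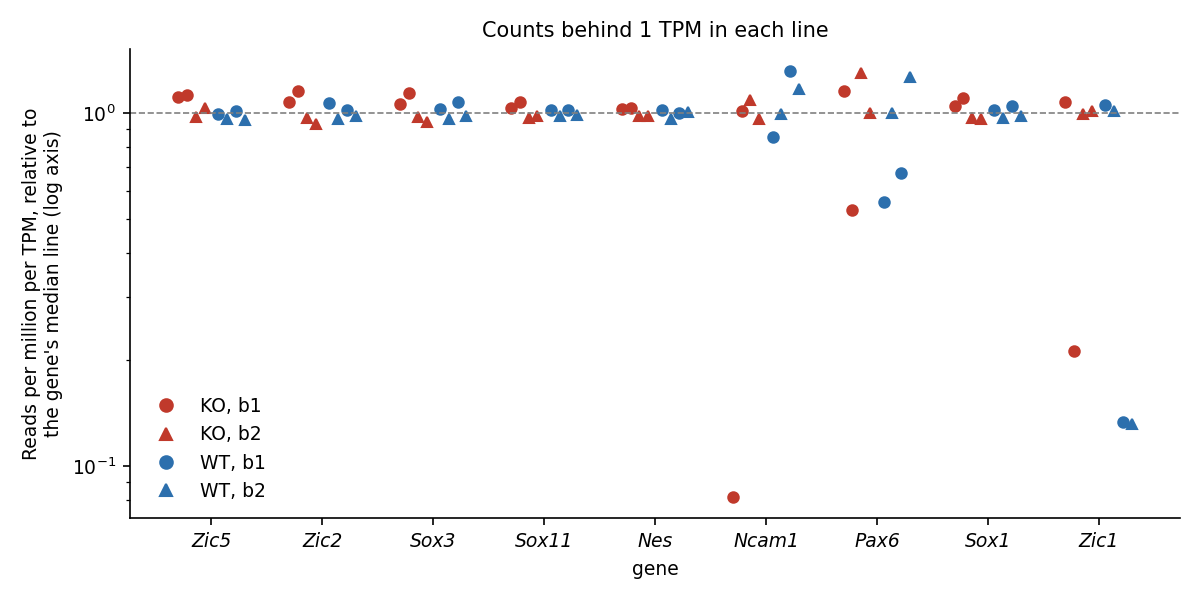
Reads per TPM of each gene in each line, after scaling to the library total and divided by the gene's median line, on a log axis, with colours and symbols for genotype and column suffix as given in the legend. Ncam1 in KO1 and Zic1 in KO9, WT17 and WT34 lie far below the dashed line at 1, Pax6 is spread, and the other 6 genes lie close to it.

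None of the 9 genes was called different between KO and WT lines at an adjusted p under 0.05, by edgeR's quasi-likelihood test on 17272 genes, nor by DESeq2. Over all genes, 0.0405% were called. The log2 differences, KO minus WT, ran from −0.32 to 0.23 apart from Zic1. At an unadjusted p under 0.05 edgeR found 1 member, Zic1, and 970 of all 17272 genes tested.

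In KO1, KO9, KO15 and KO25, in this order, Zic1 stood at 1.36, 0.902, 1.71 and 0.875 CPM. The WT lines gave 0.605 CPM (WT7), 0.375 CPM (WT12), 0.565 CPM (WT17) and 0.850 CPM (WT34). The lowest KO line, KO25, was just above the highest WT line, WT34, so the groups did not overlap, and 4.19% of all genes tested had no overlap between genotypes in either direction. The log2 difference was 1.04 (SE 0.366), with an edgeR adjusted p of 0.777. In TPM the groups overlapped and the mean was 0.172 ± 0.132 in KO and 0.240 ± 0.237 in WT (SD, n = 4), so the direction of Zic1 depends on the unit.

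The abundant Zic factors did not show the direction that Zic1 had in counts. Zic2 differed by 0.01 (SE 0.271), with means of 119.6 ± 34.6 CPM in KO and 119.1 ± 41.5 CPM in WT. Zic5 differed by −0.20 (SE 0.358), with 143 ± 65.8 CPM in KO and 164 ± 63.3 CPM in WT. The SDs within a genotype were far larger than these differences. Among the Sox factors, Sox3 differed by 0.13 (SE 0.282), Sox11 by 0.10 (SE 0.0955) and Sox1 by 0.11 (SE 0.768). The standard error of Sox1 is wide enough to hide a change of more than 1 on the log2 scale. Pax6 differed by 0.23 (SE 0.405), Nes by −0.32 (SE 0.459) and Ncam1 by −0.32 (SE 0.451). In TPM the means of Ncam1 ran the other way, 1.39 ± 1.82 in KO and 0.552 ± 0.374 in WT (SD, n = 4), with KO1 at 4.11 TPM.

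When the column suffix was entered as a block, still no member was called, while 0.162% of all genes were. The block shrank the standard error of Zic5 to 0.0787, with a difference of −0.23, and that of Zic2 to 0.0831, with a difference of 0.03. With it 2 members had an unadjusted p under 0.05, Zic1 and Zic5, whose edgeR adjusted p-values were 0.317 and 0.303. Among all genes tested, 2057 of 17272 had such an unadjusted p with the block. Within b1 alone, Zic5 differed by −0.31 between 2 KO and 2 WT lines, and within b2 alone by −0.14. Zic1 differed by 0.95 and 1.15 in the same order. No member was called within either suffix.

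The columns differed far more by suffix than by genotype. Of the 9 genes, 6 were higher in b2 than in b1 and none was lower, in a fit with genotype as a covariate. Over all genes, 24.6% were called, 13.7% higher and 11.0% lower. The 6 were Zic5, Zic2, Sox3, Sox1, Nes and Ncam1. The median log2 difference of the 9 members was 0.79, against 0.01 over all genes tested.

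**Figure D3:**
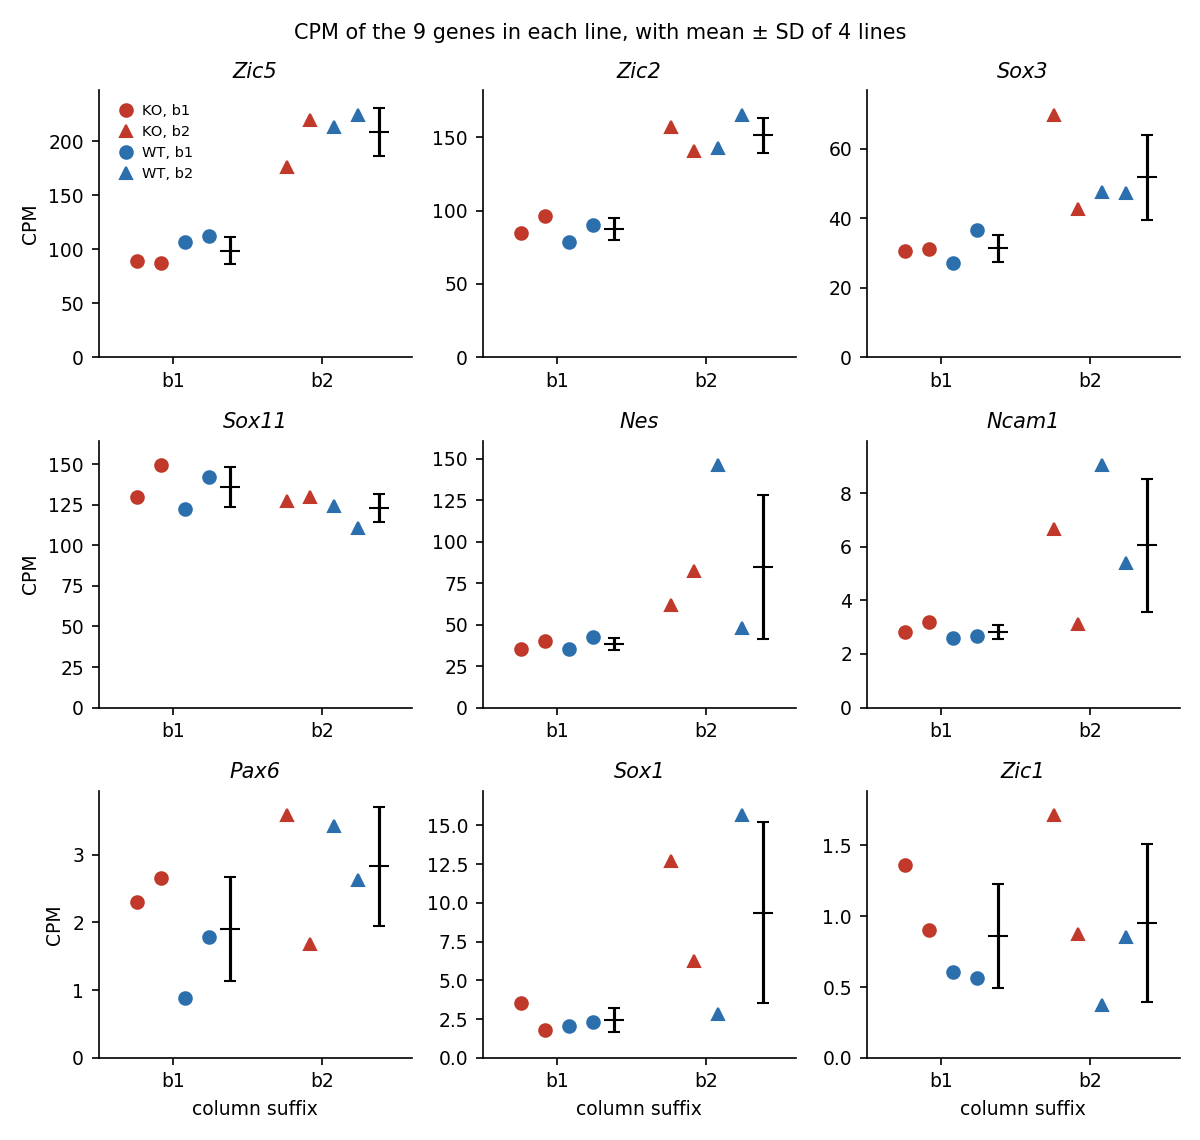
CPM of each gene in each line, from 0, with the 4 b1 columns on the left and the 4 b2 columns on the right of each panel, KO lines in red, WT lines in blue and black bars for the mean ± SD of 4 lines. Zic5, Zic2, Sox3 and Nes do not overlap between the suffixes, whereas Sox11 and Zic1 do.

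Zic5 showed the difference most clearly. It stood at 88.8, 87.6, 107 and 112 CPM in KO1, KO9, WT7 and WT17. In KO15, KO25, WT12 and WT34 it stood at 176, 220, 213 and 225 CPM. The groups were far apart, and the log2 difference was 1.08 (SE 0.0795, edgeR adjusted p = 7.45e-05).

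Its neighbour Zic2 gave 84.6, 96.2, 78.7 and 90.0 CPM in the b1 lines, in the same order. In the b2 lines it gave 157, 140, 143 and 165 CPM. Again no b1 line reached a b2 line, with a log2 difference of 0.79 (SE 0.0836, edgeR adjusted p = 3.26e-04). Zic5 and Zic2 were also called in KO lines alone (log2 differences of 1.16 and 0.72) and in WT lines alone (0.99 and 0.86), with 2 lines against 2. They kept this call in every alternative tried.

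Sox3 ran from 27.3 to 36.7 CPM in b1 and was 69.8, 42.7, 47.4 and 47.2 CPM in KO15, KO25, WT12 and WT34. There was no overlap, and KO15 stood above the rest. The log2 difference was 0.72 (SE 0.156, edgeR adjusted p = 0.00999). In KO lines alone (0.87) and in WT lines alone (0.56) Sox3 was not called.

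Sox1 was 3.56, 1.80, 2.03 and 2.31 CPM in KO1, KO9, WT7 and WT17. In KO15, KO25, WT12 and WT34 it was 12.7, 6.27, 2.84 and 15.6 CPM. The b2 lines were therefore split, with WT12 inside the range of b1. The log2 difference was the widest of the members, 1.94 (SE 0.487, edgeR adjusted p = 0.0183). Without WT34 it was 1.30 and no longer called (adjusted p = 0.0532), and it was likewise not called without KO9, KO15, WT7 or WT17 (1.73 to 1.93).

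Nes gave 35.4, 40.1, 35.4 and 42.9 CPM in the b1 lines and 61.8, 82.2, 146 and 48.0 CPM in KO15, KO25, WT12 and WT34. All b2 lines lay above all b1 lines, WT34 narrowly and WT12 by far. The log2 difference was 1.13 (SE 0.286, edgeR adjusted p = 0.0192). It was not called without KO1, WT7 or WT17, where the difference was 1.03 to 1.12, nor by limma on log2(TPM + 1) (0.81, adjusted p = 0.147). Without WT12 it was 0.67 and still called (adjusted p = 0.0137). WT12, the b2 line in which Sox1 was lowest, was the line in which Nes was highest.

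Ncam1 was 2.81, 3.21, 2.58 and 2.68 CPM in the b1 lines and 6.64, 3.14, 9.05 and 5.38 CPM in KO15, KO25, WT12 and WT34. Of the b2 lines, KO25 lay within the range of b1. The log2 difference was 1.09 (SE 0.289, edgeR adjusted p = 0.0227), and it was not called without KO1, KO15, WT7 or WT17 (0.95 to 1.12). In TPM the direction of the means was the opposite, 1.27 ± 1.89 in b1 and 0.668 ± 0.306 in b2 (SD, n = 4), because of the 4.11 TPM of KO1.

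The other 3 members were not called by suffix. Sox11 differed by −0.15 (SE 0.0752, edgeR adjusted p = 0.186), with 136 ± 12.1 CPM in b1 and 123 ± 8.43 CPM in b2. Pax6 differed by 0.62 (SE 0.352, adjusted p = 0.228), and its b1 and b2 lines overlapped widely. Zic1 differed by 0.12 (SE 0.371, adjusted p = 0.844). In TPM the means of both ran the other way, for Pax6 0.821 ± 0.447 in b1 and 0.693 ± 0.229 in b2, and for Zic1 0.225 ± 0.171 in b1 and 0.187 ± 0.216 in b2. In CPM and in TPM alike, 4 of the 9 members were higher in every b2 line than in every b1 line and 0 were lower in every one, against 13.9% and 12.4% of all genes in CPM.

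**Figure D4:**
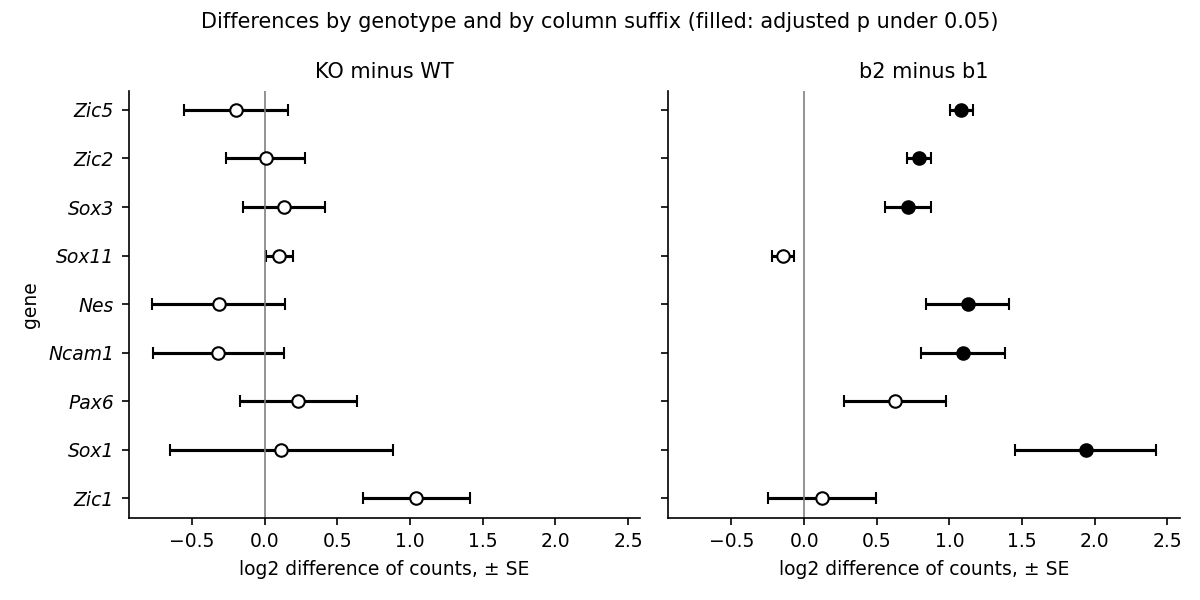
Log2 differences of counts for each gene, KO minus WT on the left and b2 minus b1 on the right, with bars for ± SE and filled points for an adjusted p under 0.05. No point is filled on the left, and Zic5, Zic2, Sox3, Nes, Ncam1 and Sox1 are filled on the right.

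Called in KO lines alone were 3 members, Zic5, Zic2 and Nes, against 4.12% of all genes higher in b2. In WT lines alone 2 were called, Zic5 and Zic2, against 1.18%. Whether the KO against WT difference itself changed between the suffixes was tested by an interaction term. By edgeR, 0 of the 9 members were called and 0 had an unadjusted p under 0.05, and over all genes 0% were called. DESeq2 also called 0 members. The largest estimate was that of Pax6, −1.07 (SE 0.652), from a difference of 0.88 within b1 and of −0.19 within b2.

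Among the related Sox genes, Sox2, Sox4 and Sox12 were on in all lines. They did not move in 1 direction by suffix. Sox12, a SoxC factor, was higher in b2 (log2 difference 0.35, SE 0.104, edgeR adjusted p = 0.0375) and Sox4, another SoxC factor, was lower (−0.33, SE 0.0858, adjusted p = 0.0198). Sox12 kept its call only when KO25 was left out and lost it without any 1 of the other 7 lines, and Sox4 lost it without WT34 (−0.29). Sox2, which maintains pluripotency and neural progenitors, differed by 0.30 (SE 0.182, adjusted p = 0.269). By edgeR none of these 3 was called between KO and WT, and 0 had an unadjusted p under 0.05. Zic4 had at most 2 counts in any line and Sox14 at most 8.

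Noncoding neighbours gave values apart from those of the coding genes. Sox2ot, the noncoding transcript that contains Sox2, was higher in b2 (log2 difference 2.48, SE 0.505, edgeR adjusted p = 0.00742). It stood at 0.281 to 1.04 CPM in b1 and 1.66 to 7.37 CPM in b2. In TPM the suffixes overlapped, at 0.0442 to 0.358 in b1 and 0.286 to 1.44 in b2. Sox2ot was not called in KO lines alone or in WT lines alone. Sox1ot, which overlaps Sox1 on the same strand, differed by 0.14 (SE 0.313, adjusted p = 0.778). Reads in the shared stretch of Sox1 and Sox1ot may be split between them, and Zic1 and Zic4 share a stretch on opposite strands.

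Of 56 other neural genes in the lists, among them the relatives above, 20 were on in every line and 33 were below 1 TPM in every line. Of the 35 tested, 7 were called between b2 and b1, 6 higher and 1 lower, a share close to that of all genes. The 5 beyond the Sox relatives were all higher. They were Dll1, a Notch ligand (1.69, SE 0.215, adjusted p = 8.21e-04), Pou3f1, a POU factor of the epiblast and neural plate (0.89, SE 0.225, adjusted p = 0.0189), Meis2 (1.69, SE 0.463, adjusted p = 0.0260), Irx3 (1.04, SE 0.295, adjusted p = 0.0295) and En2 (1.58, SE 0.224, adjusted p = 0.00136). The last 3 are homeodomain factors of neural patterning. Of 9 neuronal genes tested none was called, among them Tubb3 at 0.11 (SE 0.116). Of 4 anterior neural plate genes tested none was called, among them Otx2 at 0.15 (SE 0.210). In both lists 0 genes had an unadjusted p under 0.05 by edgeR, against 6528 of all 17272 genes tested.

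Between KO and WT, edgeR called 0 of these 35 genes and found 7 at an unadjusted p under 0.05. Among all genes tested, 970 of 17272 had such a p. DESeq2 called Otx1, Sox9 and Sfrp1, all higher in KO. Sfrp1 was also called by edgeR once the suffix was a block. By edgeR without the block, Otx1, an anterior homeodomain factor, differed by 1.78 (SE 0.381, adjusted p = 0.349) at a mean of 0.200 TPM. Sox9, a SoxE factor, differed by 1.79 (SE 0.305, adjusted p = 0.163) at 0.106 TPM. Sfrp1, a secreted Wnt modulator, differed by 0.79 (SE 0.147, adjusted p = 0.204) at 1.90 TPM. Lhx2, of the anterior neural plate list, differed by 1.13 (SE 0.374, adjusted p = 0.733). Of 9 neuronal genes tested, 3 had a positive difference, but the median of the 9 was −0.0039, against −0.0044 over all genes. By edgeR, 3 of the 9 had an unadjusted p under 0.05. Tubb3 differed by −0.49 (SE 0.132, adjusted p = 0.569) and Elavl3 by −0.85 (SE 0.285, adjusted p = 0.741), both lower in KO.

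Proteins of the same kinds as Nes and Ncam1 were looked at beside them. Of 7 other intermediate filament genes, 1 was called by suffix, against 24.6% of all genes. It was Ina, a neuronal filament (log2 difference 1.15, SE 0.182, edgeR adjusted p = 0.00238). Vim, which pairs with nestin, was not called. Only 1 of these 7 differences was positive, and their median was −0.16. Of 7 genes of neural adhesion and of polysialylation, the modification that NCAM1 carries, 5 were tested and none was called. By edgeR, 2 of them had an unadjusted p under 0.05, as did 6528 of all 17272 genes tested. They were St8sia2 at 0.92 (SE 0.322, adjusted p = 0.0631) and Nfasc at 0.52 (SE 0.225, adjusted p = 0.119).

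Markers of other states and cells moved with the suffix too, and their part in the result was not tested. Of 9 genes of formative and primed cells, 6 were higher in b2 and none was lower, against 13.7% and 11.0% of all genes. The list shares Pou3f1 and Otx2 with the neural lists and Foxd3 with the neural crest list. Summed, its 9 genes stood at 518 to 622 TPM in b1 and 640 to 779 TPM in b2. Among these, Foxd3 differed by 3.13 (SE 0.250) and Fgf5 by 0.64 (SE 0.164). Of 5 core pluripotency genes 1, Sall4, was higher in b2, and their sum was 684 to 725 TPM in b1 and 753 to 782 TPM in b2. Of 9 naive genes tested 1, Klf2, was higher, and the sums overlapped (40.9 to 53.7 TPM in b1, 32.3 to 60.5 TPM in b2). The list of 9 fibroblast markers summed to 20.6 to 30.8 TPM in b1 and to 5.68 to 17.6 TPM in b2, but its genes did not move together. Among its 6 tested genes Thy1, which neurons also express, and Acta2 were called lower. Col1a2 differed by 1.17 (SE 0.395, adjusted p = 0.0566), with every b2 line above every b1 line in CPM, and Dcn by 0.48 (SE 0.274, adjusted p = 0.229). Thy1 made up most of that sum at 3.63 to 28.3 TPM, while Postn was at 0 in every line and Lum had at most 1 count.

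Genes of the other germ layers were scarce in these lines, as were 33 of the 56 other neural genes. Of 9 primitive streak genes none reached 1 TPM in any line, with a summed level of 0.685 to 2.17 TPM, and of 4 tested Eomes and Foxa2 were higher in b2. Mesoderm genes summed to 1.40 to 3.63 TPM and endoderm genes to 0.533 to 1.38 TPM, and none of the 4 and 3 tested was called by suffix or had an unadjusted p under 0.05 by edgeR. Of 11 genes of nonneural ectoderm and neural crest tested, 3 were higher in b2, Foxd3, Gata3 and Tfap2c. Over all genes, 13.7% were higher in b2. By genotype edgeR called none of the genes tested in these lists. KO minus WT was positive for 3 of 4 streak, 2 of 4 mesoderm and 3 of 3 endoderm genes. Among them, Sox7 differed by 2.03 (SE 0.419, edgeR adjusted p = 0.308), T by 1.39 (SE 0.486, adjusted p = 0.777) and Eomes by 1.12 (SE 0.511, adjusted p = 0.907). Their means were 0.0862, 0.270 and 0.375 TPM in the same order.

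Among the members with a mean of at least 1 CPM, which leaves out Zic1, those with the widest range of log2(CPM + 0.1) were Sox1 (3.05), Nes (2.04) and Pax6 (1.91). For each, the 3 genes nearest in profile over the 8 lines were taken as those with the smallest root mean square difference of centred log2(CPM + 0.1) among the genes tested. Sox1 was nearest to Meis2 (0.31), Wt1 (0.36) and Arhgef26 (0.36). All of these were high in KO15 and WT34, as Sox1 was, with Meis2 at 21.9 and 19.0 CPM there and at 3.54 CPM in WT12. Nes was nearest to Lif (0.20), Slc35f1 (0.23) and Prickle1 (0.24), which were highest in WT12, with Prickle1 at 78.9 CPM there and 14.1 to 49.7 CPM elsewhere. Pax6 was nearest to Omp (0.22), Mt3 (0.24) and Slc5a1 (0.25), with Mt3 at 8.05 CPM in both KO15 and WT12 and 3.63 CPM in WT7. These are descriptions over 8 libraries and share their depth and suffix.

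**Figure D5:**
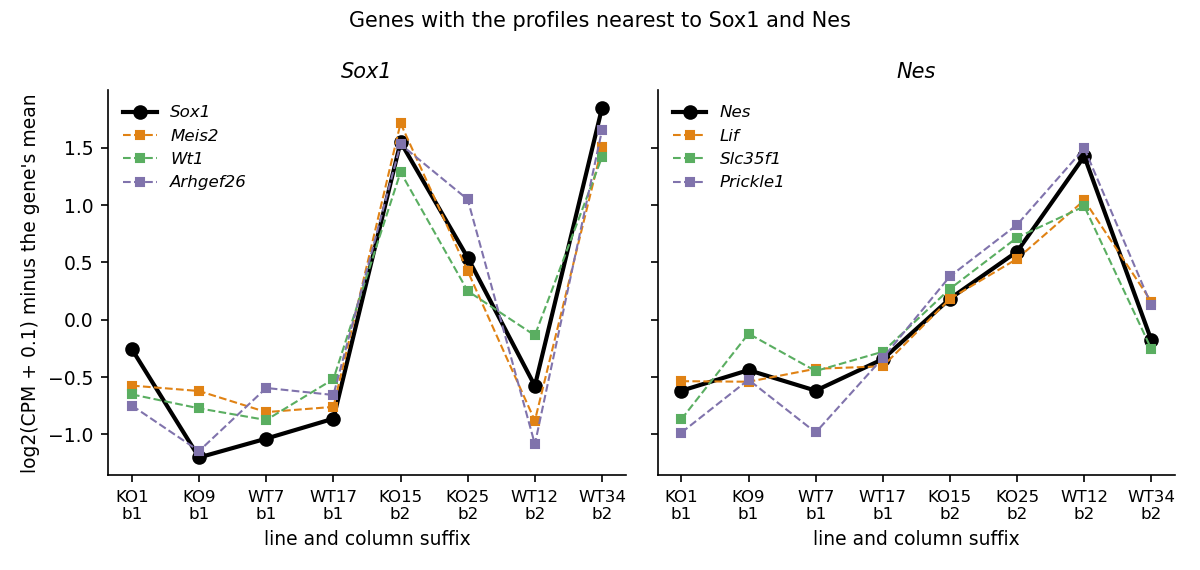
Log2(CPM + 0.1) minus each gene's mean over the 8 lines, for Sox1 and Nes in black and the 3 genes nearest to each in colour, with b1 lines on the left and b2 lines on the right of each panel and lines drawn only to guide the eye. Sox1 and its neighbours peak in KO15 and WT34. In WT12, Sox1, Meis2 and Arhgef26 lie near their b1 lines, whereas Wt1 lies above its b1 lines. Nes and its neighbours peak in WT12.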

How the data were processed

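RNA-seq of 8 EpiLC lines was examined, 1 library per line. Per the study's methods, Trim Galore 0.6.4 served for trimming and Salmon 0.14.1 for quantification against mouse GENCODE transcripts, with tximport (R 4.0.2) for gene-level sums, and the submitters' notes name build mm10. Estimated counts and TPM were deposited by the authors in 2 tables. Counts and TPM are both model estimates, which for genes with several transcripts depend on how reads were assigned to them.

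Rounding the estimated counts to integers changed 27.8% of values by at most 0.5. Rows without a symbol, 205 of 54281, held 0.0292% to 0.0467% of the counts and were kept in the fits, and 0 columns of another series were present. The filter filterByExpr of edgeR 4.0.16 (R 4.3.3) left 17272 genes, all 9 members among them, which were scaled by TMM and tested by quasi-likelihood F-tests, with p-values adjusted over all genes by Benjamini-Hochberg. KO against WT was fitted without further terms, b2 against b1 with genotype as a covariate, and the interaction with both. The fits were tested on simulated data. The replicates are separate ESC lines. Alternatives were DESeq2 1.42.0 as the test or for size factors, library size alone, a filter of 10 counts in each library or none, limma 3.58.1 on log2(TPM + 1) and log2(TPM + 0.1) for genes with a mean of at least 1 TPM, the suffix as a block, each suffix or genotype alone, no genotype term and each line left out.

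The members and lists were chosen with earlier results of these data known. Named are the members, Tet1, related Zic and Sox genes (1 of them is not reported here), neighbouring transcripts, from each list the 4 genes at most with the lowest p by suffix and 2 at most by genotype, and the nearest profiles. Fgf5, Vim and the markers at 0 (Postn, Lum) were chosen after their values were seen. Positions are from GENCODE M21, as the release in the methods was not used here. Promoter windows, matched by symbol for 6 of 9 members, are from RefSeq (GRCm38.p6).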

Additional observations from a re-analysis of the deposited data

Results flagged for a closer look

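For each member, the 4 lines of a genotype were searched for a value far from the other 3 by Dixon's criterion, in CPM and in TPM. Of 36 such groups, each gene and genotype counted once per unit, 7 met it. For independent normal values about 1 in 20 would. These values were not log-transformed, the 2 units share their reads and each group mixes b1 and b2 lines. The count is therefore no measure of an excess. Sox1 in WT34 stood at 15.6 CPM and 1.36 TPM, against 2.03 to 2.84 CPM and 0.175 to 0.264 TPM in the other WT lines. Nes in WT12 stood at 146 CPM and 10.5 TPM, against 35.4 to 48.0 CPM and 2.34 to 3.13 TPM. Ncam1 in KO15 was at 6.64 CPM (2.81 to 3.21 CPM in the other KO lines), and in TPM it was KO1 that stood apart, at 4.11 against 0.381 to 0.684. Sox11 in KO9 was at 149 CPM, against 127 to 130 CPM in the other KO lines. WT34, WT12 and KO15 are b2 columns and KO1 and KO9 are b1 columns.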

How the results depend on the processing

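Each of the 9 member differences was recomputed under up to 18 alternatives per comparison, as far as the gene was tested, 153 values per comparison. By genotype no member was called under any of them, and 20 values changed sign. Zic2 turned to −0.0018 by library size alone, −0.0069 and −0.0067 by limma with a pseudocount of 1 and 0.1, −0.042 in b2 alone and −0.15 to 0.20 with 1 line left out. Sox3 turned to −0.054 and Ncam1 to 0.19 in b1 alone, and Pax6 to −0.19 in b2 alone. With 1 line left out, Sox1 ran from −0.55 to 1.34, Sox3 from −0.19 to 0.27, Pax6 from −0.026 to 0.55, Nes from −0.58 to 0.38 and Ncam1 from −0.69 to 0.16. The count over all genes, 7, became 106 by DESeq2, 28 with the suffix as a block, 19 in b1 alone and 2 or 4 by limma. The count of other neural genes, 0, became 3 by DESeq2 and 1 with the block.

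By suffix 21 of 153 values lost the call and 3, all of Zic1, changed sign, which ran from −0.15 to 0.31 with 1 line left out. The 6 members called became 3 by limma with either pseudocount, which tested only 5 members, 3 in KO lines alone, 2 in WT lines alone and 3 to 6 with 1 line left out (3 without WT7 or without WT17). Of all genes 4253 were called (2359 higher, 1894 lower), 4444 by library size alone (1933 higher, 2511 lower), 1395 and 1321 by limma, 1014 in KO lines alone, 271 in WT lines alone and 2655 to 4807 with 1 line left out (2655 without KO9, 2763 without WT7). Of other neural genes 7 were called, 11 without a filter, 1 by limma with either pseudocount, 1 in KO lines alone, 1 in WT lines alone and 2 to 11 with 1 line left out (3 or 4 without KO1, KO9, KO15, WT7 or WT17, 2 without WT34, 11 without WT12). The interaction called 0 genes by edgeR (227 at an unadjusted p under 0.05), 2 by DESeq2, 168 without a filter and 31 by limma, none of them a member. The causes of these changes were not tested.

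With 2 lines per genotype and suffix, the standard errors printed beside the differences limit what can be seen, and Zic1, Sox1, Pax6 and Ncam1, at under 1 TPM in most lines, rest on the fewest reads. No paired analysis was possible because, although the study describes the lines as littermate pairs, neither the labels nor the headers tie a KO line to its WT littermate.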
